A study of Homo sapiens with 72 samples.

Results

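The genes described here are 8 components of complement, C1R, C1S, C3, C7, CFB, CFD, CFI and SERPING1, in IMR-90 cells, an established strain of normal human lung fibroblasts. They are 8 of the 34810 names on the array and were read from 10 of the 41000 probes on each array, taken by gene name: 1 probe each for 6 of the genes and a pair of probes each for C7 and CFI. The names were picked with the differences from control on these same 72 arrays already known, so the differences of these genes from control are given as a description, without a test. Of the 10 probes, 9 passed the filter on dim probes, along with 25239 probes in all, and the second CFI probe was not well above background on 70 of the 72 arrays.

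Complement is a set of mostly secreted plasma proteins that mark and attack cells and microbes. The C1 complex starts the classical route through its proteases C1R and C1S, every route meets at the cleavage of C3, and the terminal components, C7 among them, build a pore in the target membrane. The liver makes most of the plasma supply, but fibroblasts also make several components, and inflammatory cytokines such as the interleukins raise C3 and CFB in many cell types.

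Irradiated cells grew on a thin film that alpha particles could cross, in dishes that received 50 cGy. Bystander cells shared those dishes with irradiated cells but grew on a thicker film that stopped the particles, and control cells were sham-irradiated. Each of these 3 groups was sampled at 6 times, from 0.5 to 24 hours, in 4 experiments, with 1 array per sample, and the sources used here name no genetic change in any group. Levels are log2 intensities relative to the array's own 75th percentile, so a level of 0 means a signal equal to that percentile, and levels of different probes are not comparable. A difference is the level in irradiated or bystander cells minus that of the control of the same experiment and time, and a mean difference carries its SD over 4 experiments.

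All 12 fibroblast markers, including COL1A1, DCN and PDGFRB, were well above background on all 72 arrays. The pan-leukocyte marker PTPRC was well above background on 1 array, and the endothelial marker CDH5 on 12 arrays and the hepatocyte marker ALB on 13, none of which passed the filter. However, 6 of 8 leukocyte markers, 3 of 7 epithelial, 3 of 5 endothelial and 1 of 4 hepatocyte markers did pass it. CD14, SFTPC and SERPINA1 were among them. Whether their signal came from probe background or from such cells was not tested. A probe with signal on these arrays is therefore not read here as marking a cell type. In bulk RNA, a change in the share of cells that make a transcript and a change in the amount per cell cannot be told apart.

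The 4 experiments did not respond to the same extent, and this is stated before the values because several of them rest on it. The share of all filtered probes whose irradiated level, averaged over the 6 times, was more than 1 log2 unit below control was 0.0598% in experiment 1, 0.0438% in experiment 2, 1.22% in experiment 3 and 4.69% in experiment 4. The shares more than 1 unit above control were 0.598%, 0.466%, 1.1% and 7% in the same order. Bystander cells gave 0.012%, 0.0637%, 1.26% and 4.51% below control. Experiment 4 therefore stood apart across the array. The median difference of the 12 fibroblast markers in irradiated cells was -0.94 in experiment 4 and -0.16, 0.05 and -0.22 in experiments 1, 2 and 3, but the markers did not all go one way. FAP rose in irradiated cells at 6 hours by 0.84 while THY1 fell at 0.5 hours by -1.05 and PDGFRB at 6 hours by -0.92, all called in limma. The leukocyte marker CD68 was called higher at 0.5 hours in irradiated and bystander cells and at 6 hours in irradiated cells. No epithelial, endothelial or hepatocyte marker was called. The part of these shifts in the complement values was not tested. At 0.5 hours the authors' own value table also exchanged the columns of experiments 3 and 4 in all 3 groups relative to the scanner outputs, so these numbers are unsettled at that time, although each experiment's 3 arrays stay together.

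Averaged over the 6 times, C3 was higher than control in irradiated and bystander cells of experiments 1 and 2 and slightly lower in experiment 4. C7 was lower in experiments 3 and 4 by more than 1 log2 unit and differed far less in experiments 1 and 2. SERPING1 was lower in all 4 experiments in irradiated and bystander cells, and so was CFI, which lay near the lower end of the measured range. C1S was lower in all 4 in irradiated cells only, by as little as -0.02 in experiment 2. No test of irradiated against bystander cells passed the threshold for any of the 9 probes.

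The probes that carry the main values are 60-base oligonucleotides. Those below each hold a reading frame without a stop codon. They are shown because they define what was measured for C3, SERPING1, CFB and CFI. SERPING1 and CFI were lower in all 4 experiments when averaged over the 6 times. CFB encodes the protease subunit of the alternative pathway's C3-cleaving enzyme, and CFI the protease that inactivates C3b.
C3: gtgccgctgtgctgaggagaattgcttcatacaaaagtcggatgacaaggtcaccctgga
SERPING1: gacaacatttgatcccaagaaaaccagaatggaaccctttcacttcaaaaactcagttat
CFB: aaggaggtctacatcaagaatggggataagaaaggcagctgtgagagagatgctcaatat
CFI: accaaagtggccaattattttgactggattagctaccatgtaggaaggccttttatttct

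C1R and C1S, the 2 proteases of the C1 complex, lie close together on chromosome 12, at chr12:7080219-7092445 and chr12:7060718-7071032 of GRCh38.p14. C1R was lower than control in experiments 3 and 4 at all 6 times and near control in the other two. Its mean irradiated difference over the 6 times was 0.02 in experiment 1, 0.15 in experiment 2, -0.88 in experiment 3 and -1.3 in experiment 4. Bystander cells gave 0.05, 0.18, -0.84 and -1.22. At 24 hours C1R levels were 5.01, 5.05, 4.93 and 5.53 in the controls of experiments 1 to 4, 4.98, 5.21, 3.98 and 3.78 in irradiated cells and 5.03, 5.02, 4.2 and 4.04 in bystander cells. The groups overlapped at all 6 times.

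C1S showed a smaller difference, which was largest in experiment 4. Its mean irradiated difference over time was -0.27, -0.02, -0.27 and -0.74 in experiments 1 to 4, and the bystander values were -0.2, 0.03, -0.22 and -0.6. At 6 hours the irradiated difference was -0.56 ± 0.42 (SD, n = 4) and was negative in 4 of 4 experiments. In experiment 2 the control and bystander arrays at 1 hour had no usable C1S spot, so C1S at 1 hour rests on 3 experiments.

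SERPING1, at chr11:57597685-57614848, encodes the C1 inhibitor, the serpin that inactivates C1R and C1S. Its mean difference over time was negative in all 4 experiments, at -0.54, -0.71, -0.68 and -1.37 in irradiated and -0.39, -0.68, -0.65 and -1.1 in bystander cells. Of 24 irradiated differences 22 were negative, and so were 22 of 24 bystander differences. At 6 hours the control levels were 1.41, 0.49, 1.53 and 1.35 in experiments 1 to 4, the irradiated levels were -0.11, -0.25, 0.07 and -0.92, and the bystander levels were -0.03, 0.08, 0.68 and -0.15. Every irradiated array lay below every control array, whereas 1 bystander array lay above the lowest control. The irradiated difference was -1.5 ± 0.62, a 2.83-fold lower level, and the bystander difference was -1.05 ± 0.52. Irradiated and control groups were also apart at 0.5 hours, with a difference of -0.61 ± 0.15, and at 2 hours, with -0.85 ± 0.35, where the bystander group was apart as well, with -0.71 ± 0.29. Without experiment 4 the difference at 6 hours was -1.24 in irradiated and -0.9 in bystander cells.

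C3, at chr19:6677704-6720650, is the protein on which all routes converge. At 24 hours its control levels were -0.93, -0.99, -0.45 and -1.27 in experiments 1 to 4. Irradiated cells gave 0.51, 0.36, 0.43 and -1.56, and bystander cells gave 0.54, 0.22, 0.85 and -1.7. Experiments 1, 2 and 3 were thus above every control array while experiment 4 was below all of them. The mean difference was 0.85 ± 0.8 in irradiated cells and 0.89 ± 0.88 in bystander cells, and without experiment 4 it was 1.23 and 1.33. With the slide as a block as well as the experiment it was 0.68 and 0.57, and without scaling between arrays the irradiated mean was 0.45.

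The course of C3 over time differed between experiments. In experiment 1 the irradiated differences were 1.06, 0.26, 0.46, 0.93, 1.04 and 1.44 in order of time, and in experiment 2 they were 0.99, -0.09, -0.1, 0.74, 1.36 and 1.36. Both experiments had smaller values at 1 and 2 hours than at 0.5 hours or from 4 hours on. Experiment 3 gave -0.09, -0.51, -0.22, 0.33, -0.48 and 0.88, where only the value at 24 hours was above 0.5. Experiment 4 ran from -0.57 to 0.07. Bystander cells gave 1.31, 0.28, 0.23, 0.79, 1.34 and 1.47 in experiment 1 and 0.92, 0.11, 0.16, 0.87, 1.34 and 1.21 in experiment 2. Their differences in experiment 3 were -0.17, -0.44, -0.07, 0.56, -0.77 and 1.3, above 0.5 at 4 and 24 hours, and in experiment 4 they ran from -0.45 to 0.04. Arrays of different times lay on different slides, so no difference between times was tested.

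**Figure D1:**
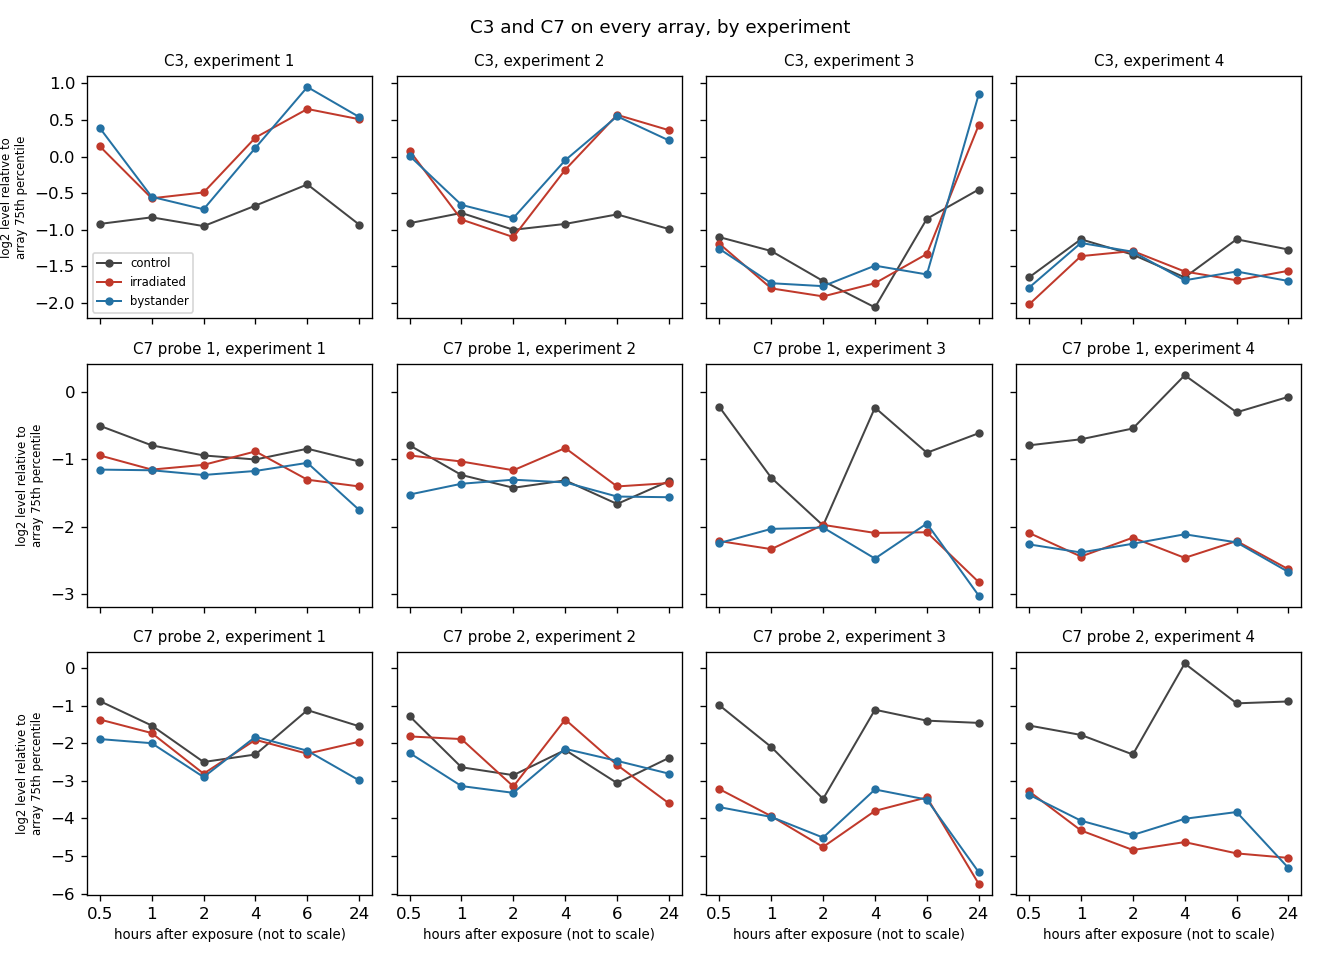
Levels of C3 and of both C7 probes on all 72 arrays, as log2 intensity relative to the array's 75th percentile (vertical axis), against hours after exposure at even spacing (horizontal axis), with 1 panel per probe and experiment and 1 line per group. C3 lies above control at most times in experiments 1 and 2 and at 4 and 24 hours in experiment 3, and C7 lies below control in experiments 3 and 4, except that probe 1 meets the control at 2 hours in experiment 3.

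CFB, at chr6:31946095-31952084, encodes factor B, the protease subunit of the C3-cleaving enzyme of the alternative pathway. Its mean irradiated difference over time was 0.06, 0.03, -0.12 and -0.78 in experiments 1 to 4, and its bystander difference 0.19, 0.14, -0.11 and -0.73. At 0.5 hours experiments 1 and 2 were above control by 0.52 and 0.73 in irradiated and by 0.63 and 0.72 in bystander cells, and experiment 3 was below it by -0.86 and -0.81. At 24 hours irradiated experiment 4 stood at -1.44 while the other 3 lay between 0.14 and 0.37. The mean difference was largest relative to its SD in bystander cells at 6 hours, where both were about equal (-0.29 ± 0.29).

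CFD, at chr19:859664-863641, encodes factor D, the protease that activates factor B. It differed more between experiments than between groups. Control levels averaged over the 6 times were -1.21 and -1.12 in experiments 1 and 2 and -2.78 and -2.66 in experiments 3 and 4. Irradiated cells had -1.24, -1.11, -2.84 and -3.14 and bystander cells -1.25, -1.22, -3.02 and -3.27 in the same order. The mean differences from control ran from -0.46 to 0.24 in irradiated cells and from -0.43 to -0.06 in bystander cells over the 6 times.

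CFI, at chr4:109730982-109801999, encodes factor I, the protease that inactivates C3b. It lay near the lower end of the measured range, and 6 of its 72 arrays were not well above background, 4 of them at 24 hours. At 6 hours control levels were -3.68, -3.66, -3.46 and -3.28, irradiated levels -3.93, -4.24, -5.02 and -4.84, and bystander levels -4.51, -3.82, -5.32 and -4.51. All 4 controls were above all 8 exposed arrays. The difference was -0.99 ± 0.68 in irradiated and -1.02 ± 0.71 in bystander cells. At 24 hours the bystander array of experiment 3 was at the floor of -10, so the mean difference of -2.06 ± 2.23 there depends on that floor, and was -1.16 with the slide as a block, and the irradiated mean was -1.24 ± 0.67. The differences that ran most the other way were in experiment 4, at 1.27 in irradiated cells at 1 hour and 1.12 in bystander cells at 0.5 hours. CFI differences were negative in 22 of 24 pairs in each group.

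C7, at chr5:40909497-40984643, binds the C5b-6 complex and lets it enter the membrane. Its brighter probe was well above background on every array and its dimmer probe on all but 2. At 24 hours the brighter probe read -1.03, -1.32, -0.61 and -0.07 in the controls of experiments 1 to 4. It read -1.4, -1.35, -2.82 and -2.63 in irradiated cells and -1.75, -1.56, -3.02 and -2.67 in bystander cells. All exposed arrays were below all controls, but experiments 3 and 4 differed from their own controls by -2.22 and -2.56 in irradiated cells, while experiment 2 differed by -0.03 in irradiated and -0.24 in bystander cells. The mean difference was -1.29 ± 1.28 in irradiated and -1.49 ± 1.19 in bystander cells, and without experiment 4 it was -0.87 and -1.12.

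The same split of the experiments held over the time course. Averaged over the 6 times, the brighter C7 probe differed from control by -0.27, 0.17, -1.38 and -1.98 in irradiated cells of experiments 1 to 4 and by -0.4, -0.15, -1.42 and -1.96 in bystander cells. The dimmer probe gave -0.36, 0, -2.39 and -3.29 in irradiated and -0.66, -0.29, -2.3 and -2.96 in bystander cells. The 2 probes had a Pearson correlation of 0.94 over the 48 differences, with a wider range on the dimmer probe. In experiment 4 the exposed arrays were below control at all 6 times on both probes. In experiment 3 the brighter probe differed from its control by 0.01 in irradiated cells at 2 hours, where that control was itself at -1.98, against -0.22 at 0.5 hours and -0.23 at 4 hours.

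**Figure D2:**
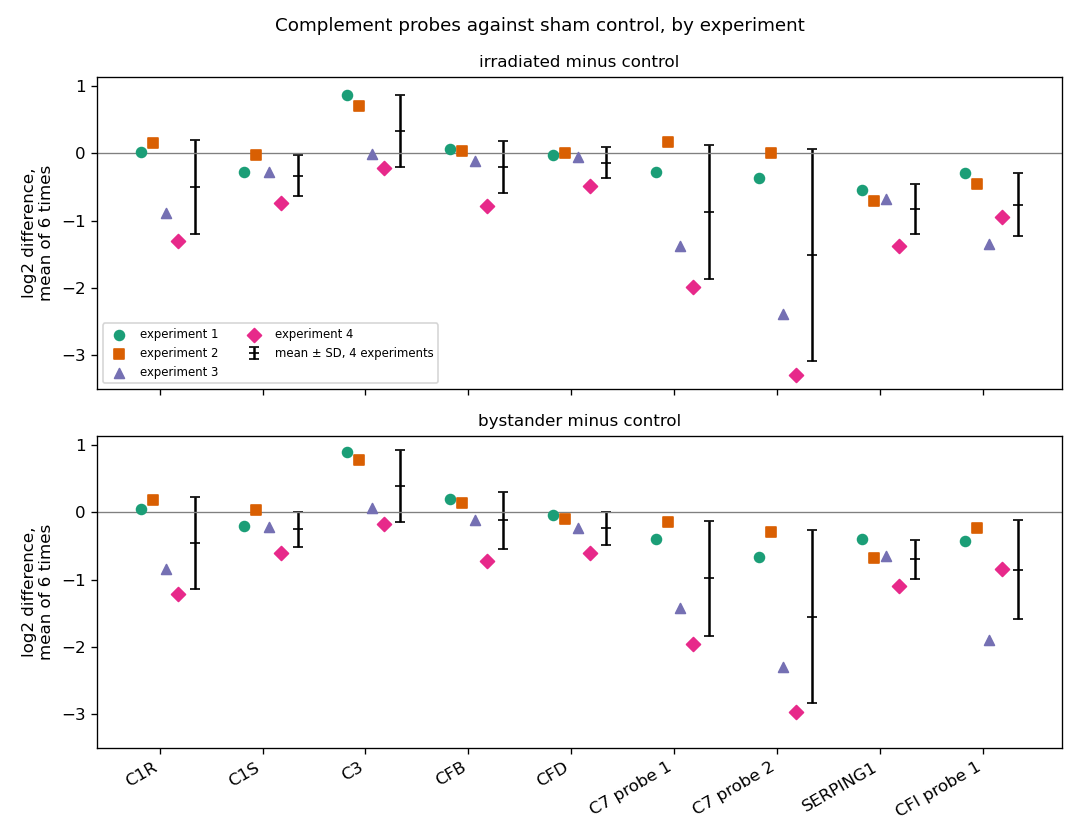
Difference from control averaged over 6 times (vertical axis, log2) for each of the 9 probes (horizontal axis), with 1 symbol per experiment and, beside them, the mean with its SD over 4 experiments, for irradiated cells (upper panel) and bystander cells (lower panel). Experiments 3 and 4 lie lowest for C1R and for both C7 probes, experiments 1 and 2 lie above 0 for C3, and all 4 experiments lie below 0 for SERPING1 and CFI.

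The groups compared with control share their control arrays, so the likeness of irradiated and bystander values is partly built in, and no correlation between them is given. How many members were past a threshold is given beside the same share of all probes, and nothing is read from it since these contrasts chose the members. Irradiated arrays lay all below control for 3 of 9 probes at 0.5 hours (C7 probe 1, SERPING1 and CFI), where 3.79% of all probes did. The shares of all probes were 2.21%, 1.9%, 1.29%, 3.47% and 1.98% at the later times in order, with SERPING1 at 2 hours, SERPING1 and CFI at 6 hours and C7 probe 1 at 24 hours among the members. Bystander arrays lay all below control for both C7 probes at 0.5 and at 24 hours, for SERPING1 at 2 hours and for CFI at 6 hours, and the shares of all probes over the 6 times were 2.62%, 0.842%, 1.22%, 1.98%, 1.27% and 2.29%. C1S at 1 hour is left out of these counts because it lacks experiment 2. At an adjusted p below 0.10 in limma, in either direction, the shares of all probes were 10.3%, 0%, 6.16%, 1.18%, 10.7% and 0.166% in irradiated cells and 6.98%, 0%, 0.23%, 0.618%, 0.277% and 0.0198% in bystander cells. The members past it, all lower, were both C7 probes at 0.5 hours in both groups, and in irradiated cells SERPING1 at 2 hours and C1S, C7 probe 2, SERPING1 and CFI at 6 hours.

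The comparison of irradiated with bystander cells asks whether being crossed by particles, in place of sharing the dish, made a difference. It did not choose the members and was tested in the fit across all filtered probes. None of 54 tests, 9 probes at 6 times, passed an adjusted p of 0.10 in limma, with adjusted p from 0.928 to 1, and 0 had an unadjusted p below 0.05. Across the array 0.0436% of probes passed at 2 hours and 0% at each of the other 5 times. C3 differed by -0.12 to -0.03 between irradiated and bystander cells, and the 95% intervals at the 6 times lay within -0.8 and 0.74. For the brighter C7 probe the differences ran from -0.05 to 0.24, within -0.78 and 1.19. C1R ran from -0.09 to 0.02 and C1S from -0.18 to 0.04. Within experiments, 19 of 24 differences of the brighter C7 probe were positive and 5 negative. For C1S, 19 of 23 were negative and 4 positive, and for SERPING1 17 of 24 were negative and 7 positive. These signs were not tested. The intervals rest on a residual spread shared by irradiated, bystander and control arrays, which could exceed the spread of the paired differences. At 1 hour the C1R differences had an SD of 0.02 over experiments, while the fit gave an SE of 0.26. For the brighter C7 probe at 2 hours these were 0.05 and 0.28, but for CFD at 24 hours 0.35 and 0.2. The absence of calls is therefore not read as equality of irradiated and bystander cells. The lowest p was 0.0702, unadjusted, for SERPING1 at 6 hours, where irradiated cells were lower by -0.45 (95% interval -0.94 to 0.04, limma adjusted p = 1). The widest intervals were those of the dimmer C7 probe at 4 hours (-1.76 to 1.51) and of CFI at 24 hours (-0.69 to 2.35), so differences of over 1 log2 unit lie within them.

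**Figure D3:**
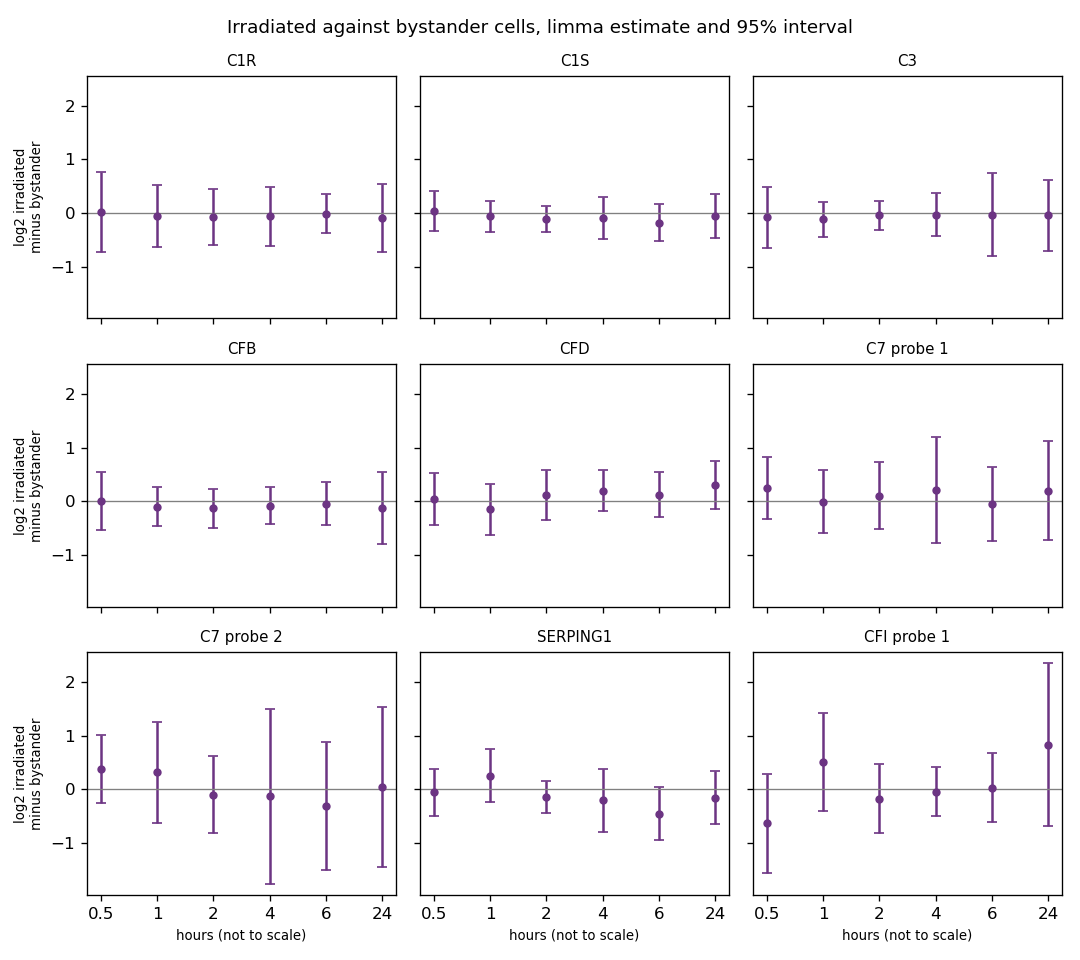
Irradiated minus bystander level (vertical axis, log2; points are limma estimates from 12 arrays and bars their 95% intervals) for each of the 9 probes at 6 times in hours at even spacing (horizontal axis). All 54 intervals include 0; the widest are those of CFI and of C7 probe 2.

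The other complement genes were taken from a list of 46 genes, of which 45 had a probe and 19 a probe past the filter. All 3 chains of C1q, C1QA, C1QB and C1QC, which recognise the target for C1R and C1S, failed the filter, as did the terminal components C6, C8A, C8B, C8G and C9, so C7 and C5 were the terminal components that could be measured. Over the 12 comparisons with control, 6 of the 19 genes passed an adjusted p of 0.10 at least once, 5 in irradiated and 4 in bystander cells. All these calls fell at 0.5 or 6 hours, where 10.3% and 10.7% of all probes passed in irradiated cells and 6.98% and 0.277% in bystander cells. Those shares are for single times. Irradiated cells had 2 of the 19 genes higher and 1 lower at 0.5 hours and 1 higher and 2 lower at 6 hours. Bystander cells had 2 higher and 2 lower at 0.5 hours and 0 at 6 hours. The share of all probes that passed at least once over the 12 comparisons was not computed. The median of the 19 genes was close to that of all probes, -0.07 against 0 at 0.5 hours and -0.05 against 0.05 at 6 hours in irradiated cells. With the slide as a block beside the experiment, 4 genes were called in irradiated and 0 in bystander cells, so none of the bystander calls given below held there. The counts also moved with single experiments, from 5 and 4 genes in irradiated and bystander cells to 3 and 0 without experiment 1, 2 and 0 without experiment 2, and 3 and 2 without experiment 3.

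The regulator CD55, which speeds the decay of the C3-cleaving enzyme on the cell surface, rose at 0.5 hours in all 4 experiments by nearly the same amount. The irradiated differences were 0.61, 0.75, 0.56 and 0.66 (fit 0.64 ± 0.1 SE, limma adjusted p = 0.0235), and the bystander differences 0.63, 0.61, 0.66 and 0.64 (adjusted p = 0.0206). Its second probe past the filter gave 1 (adjusted p = 0.0212) and 0.86 (adjusted p = 0.0226). CFP, properdin, which stabilises the alternative pathway enzyme, rose at the same time by 1.21, 0.92, 1.08 and 0.79 in irradiated cells (limma adjusted p = 0.0232) and by 0.98, 0.64, 1.21 and 0.86 in bystander cells (adjusted p = 0.0224). C1QBP, a protein that binds C1q and resides mainly in mitochondria, rose by 0.48 ± 0.14 SE in irradiated cells at 6 hours (adjusted p = 0.078).

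C4B, a component cleaved by C1S, fell at 0.5 hours by -0.32, -0.94, -1.61 and -1.27 in irradiated cells of experiments 1 to 4 (limma adjusted p = 0.0389) and by -0.13, -0.87, -1.74 and -1.11 in bystander cells (adjusted p = 0.0513). It also fell in irradiated cells at 6 hours, by -1.19, -0.88, -0.85 and -1.73 (adjusted p = 0.0196). C4A and C4B are nearly identical, and the probe may read both. CLU, clusterin, a soluble inhibitor of the terminal complex, fell by -0.53 ± 0.14 SE in irradiated cells at 6 hours (adjusted p = 0.0647). MASP1, a protease of the lectin pathway, fell in bystander cells at 0.5 hours by -0.55 ± 0.16 SE (adjusted p = 0.0986), with 0.04 in experiment 1 against -0.6, -1.04 and -0.59 in the others, and its second probe did not pass (-0.62, adjusted p = 0.138).

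**Figure D4:**
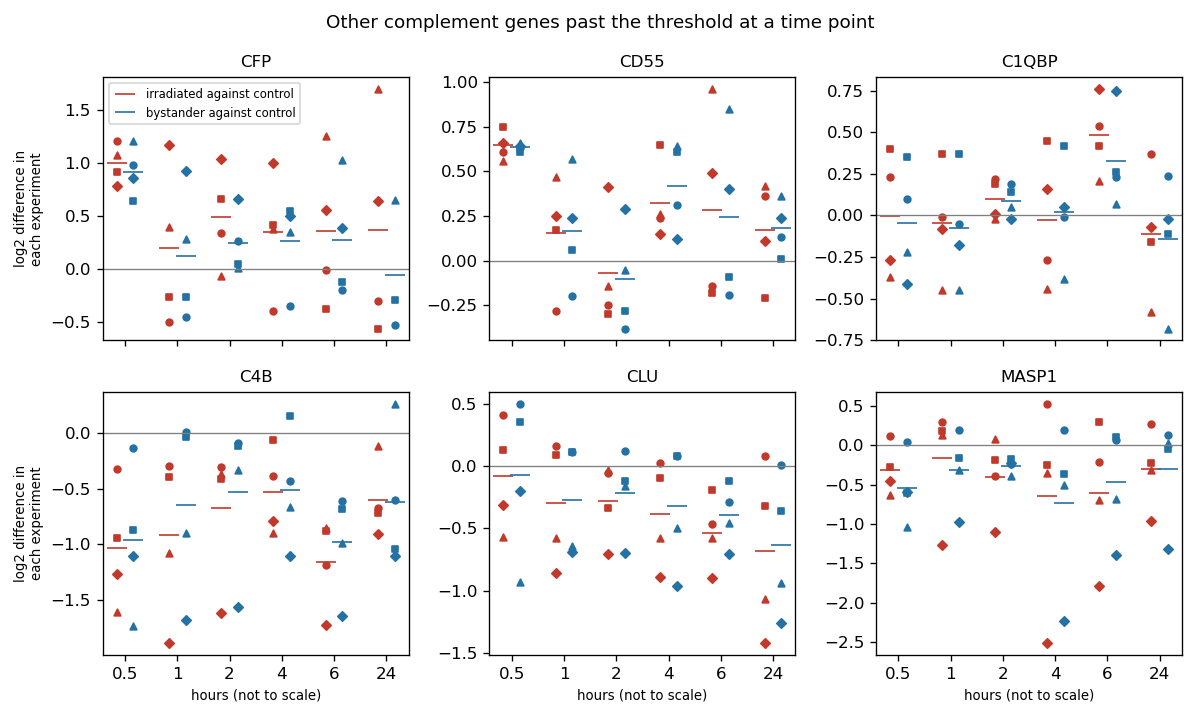
Difference from control (vertical axis, log2) for the 6 other complement genes that passed the threshold at some time, by hours at even spacing (horizontal axis), in irradiated (red) and bystander (blue) cells; circles, squares, triangles and diamonds are experiments 1, 2, 3 and 4 and the dashes their means. At 0.5 hours all CFP and CD55 points lie above 0 and all C4B points below it, and vertical scales differ between panels.

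Genes known to raise complement transcripts were measured on the same arrays. Of 16 listed cytokines, receptors and transcription factors, 14 passed the filter, and 8 passed the threshold in irradiated and 6 in bystander cells at 1 time or more. Their calls fell at 0.5, 2, 4 and 6 hours, where 10.3%, 6.16%, 1.18% and 10.7% of all probes passed in irradiated cells and 6.98%, 0.23%, 0.618% and 0.277% in bystander cells. Those shares are for single times, and the share passing at least once was not computed. At these times irradiated cells had 4, 3, 4 and 4 of the 14 genes higher and 1 lower at each. Bystander cells had 4, 0, 5 and 2 higher and 0, 0, 1 and 0 lower. IL1A, IL1B, IL6, LIF and NFKB1 rose and IRF1, RELA and STAT3 fell. IL6, a cytokine that drives acute phase genes, rose in irradiated cells at 6 hours by 4.95 and 4.62 in experiments 1 and 2 and by 1.49 and 1.74 in experiments 3 and 4 (limma adjusted p = 0.0372). IL1A rose by 2.29, 2.82, 1.54 and 1.3 in bystander cells at 4 hours (adjusted p = 0.0171), and IL1B by 2.71, 2.66, 1.48 and 0.63 (adjusted p = 0.0394). LIF, a cytokine of the IL6 family, gave 2, 2.17, 0.85 and 2.33 there (adjusted p = 0.00537). In these comparisons IL6, IL1A and IL1B had their higher differences in experiments 1 and 2, while LIF had its highest in experiment 4. Averaged over the times, C3 in bystander cells differed from control by 0.9 and 0.77 in experiments 1 and 2, against 0.07 and -0.18 in experiments 3 and 4. The cytokine values are for single times, with IL6 from irradiated cells, so they are not the same measure as the C3 means. The part of these genes in the C3 values was not tested.

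Of 14 acute phase genes 6 passed the filter, and A2M, a protease inhibitor, fell in irradiated cells at 2 hours by -0.59 (limma adjusted p = 0.0418) and at 6 hours by -0.8 ± 0.15 SE (limma adjusted p = 0.0303). PTX3, a secreted pattern-recognition protein, fell at 0.5 hours by -0.6 in irradiated (limma adjusted p = 0.035) and -0.88 in bystander cells (limma adjusted p = 0.0149). Its largest difference, -1.16 in irradiated cells at 24 hours, did not pass (limma adjusted p = 0.331). That difference was 0.44 in experiment 3 and -3 in experiment 4, and its mean without experiment 4 was -0.54. SERPINA3 and SERPINA1 did not pass at their largest differences. Of 13 interferon-responsive genes 12 passed the filter and 3, GBP2, IRF9 and ISG15, passed the threshold in irradiated cells and 0 in bystander cells. These calls, 1 lower at 0.5 hours and 2 lower at 6 hours, are set beside the shares of all probes at those times. The shares were 10.3% and 10.7% in irradiated and 6.98% and 0.277% in bystander cells. Irradiated cells tested directly against bystander cells gave 0 calls among the 12 genes at either time, where 0% of all probes passed. The median of the 12 genes at 6 hours was -0.34 in irradiated and -0.4 in bystander cells, against 0.05 and 0.02 over all probes. ISG15 fell by -1.09 ± 0.34 SE at 6 hours (limma adjusted p = 0.0898), with -1.68, -0.4, -0.04 and -2.23 in experiments 1 to 4, and its mean difference without experiment 4 was -0.71. The largest difference, -1.55 for IFIT1 at 4 hours, included -4.22 in experiment 4 and did not pass (adjusted p = 0.26). IFIT2 gave -0.85 in irradiated cells at 4 hours (limma adjusted p = 0.212), and -0.48 without experiment 4.

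The genes most like C3 and C7 were sought over the 48 within-experiment differences among 24687 complete probes. The differences of irradiated and bystander cells share control arrays, so the correlations are a description. For C3 they were FTHL17 (r = 0.77), a ferritin heavy chain gene, an unnamed transcript listed as THC2582296 (0.75), SQSTM1 (0.75), the autophagy receptor p62, HLA-DMA (0.75), which loads peptides on class II molecules, and FLJ20701 (0.75). For C7 the values were higher: ADI1 (0.93), an enzyme of methionine salvage, SGCD (0.93), a sarcoglycan of the membrane, the probe A_24_P912985 (0.92), SNURF (0.91) and FADS2 (0.91), a fatty acid desaturase. Among the members, C7 was most like C1R (r = 0.85 with the brighter probe), and C3 was most like CFB (0.64), with r = 0.41 between C3 and the brighter C7 probe.

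Promoters were found in the RefSeq table (GRCh38.p14) for 5 of the 8 genes, C1R, CFB, CFD, C7 and CFI. Those of C7 and C1R are shown because the differences of these 2 genes had the highest correlation between members of different name, as the 250 bases before the start, from chr5:40909247-40909496 on the plus strand and chr12:7092446-7092695 on the minus strand. The motifs searched, on both strands, were the NF-kB consensus, TTNNGNAA for C/EBP, TTCNNNGAA for STAT and TATAAA for the TATA box, and matches are in capitals.
C7: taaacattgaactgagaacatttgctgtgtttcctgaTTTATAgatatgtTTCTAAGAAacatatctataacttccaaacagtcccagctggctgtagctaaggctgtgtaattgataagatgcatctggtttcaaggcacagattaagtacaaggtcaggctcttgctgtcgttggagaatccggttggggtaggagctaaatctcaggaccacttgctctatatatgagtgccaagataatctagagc
C1R: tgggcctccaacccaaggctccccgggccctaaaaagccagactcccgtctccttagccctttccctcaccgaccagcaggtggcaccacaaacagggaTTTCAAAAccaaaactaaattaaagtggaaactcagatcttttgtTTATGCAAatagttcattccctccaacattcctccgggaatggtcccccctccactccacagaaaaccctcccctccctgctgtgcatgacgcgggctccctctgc
The C7 window held the STAT letters from -200 to -192 and the TATA letters, on the minus strand, from -213 to -208, and the C1R window held the C/EBP letters at -151 and -106. No motif was common to both. Among 34788 promoter windows of this length, 33.2% held the C/EBP letters, 6.57% the STAT letters, 10.8% the TATA letters and 5.21% the NF-kB consensus, so the matches are a description only.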

How the data were processed

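Total RNA was labelled with 1 dye and hybridised to Agilent whole human genome arrays, 72 in all. For each spot the authors deposited the scanner's intensity after background subtraction, unscaled between arrays, with quality flags. They also deposited a table of log2 values of the same arrays, used here as an alternative only. Control spots were dropped, and spots with the non-uniformity flag counted as missing. Where a probe had several spots, their mean was taken. Each array was scaled by its own 75th percentile, with a floor of -10 on the log2 scale. Among the probes that passed the filter described next, 0.0014% of values were at this floor. Following the methods, probes with over 10% of the 72 arrays dim or non-uniform were removed, which left 25239 of 41000.

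At each time limma 3.58.1 in R 4.3.3 was fitted to 12 arrays, with group and experiment as terms, an intensity trend, 6 residual degrees of freedom and Benjamini-Hochberg adjustment over all filtered probes, called below 0.10. The methods state that the samples of an experiment came from 1 pool of cells and were handled in parallel. With group means removed, 68 of 72 pairs of arrays of the same number and time correlated above 0.1 (medians 0.362 to 0.635, against -0.227 to -0.126 for other pairs). Removing the means itself pushes other pairs below 0 when pairs of the same number correlate, so their values are no separate contrast. Many pairs of the same number also shared a slide, and the correlation cannot tell slide from experiment there. Each slide held 4 arrays of 1 time.

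Tested on simulated data for irradiated cells at 6 hours, with 100 probes changed by each size, the fit recovered 55% of changes of 1 log2 unit and 97% of 2 units. At 24 hours it recovered 64% and 86%.

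The members, gene lists and rules were chosen with earlier results of these data known. Named genes were every member, listed complement genes past the threshold in any comparison with control, up to 4 genes of each other list by largest change, and the 5 genes most like C3 and C7. Other inducers, interferon genes and cell type markers named as past the threshold or by their detection were chosen after their values were seen. Where a gene had several probes, the brightest past the filter stood for it. The precision is limited by 4 arrays per group.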

Additional observations from a re-analysis of the deposited data

Results flagged for a closer look

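For the 9 filtered probes, 160 groups of 4 levels and 159 sets of 4 differences were searched for a sample far from the other 3. Of these 319, 14 had one, where chance gives about 1 in 20, and 12 of the 14 were in experiment 4.

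Among levels, C1S in irradiated cells at 4 hours was 5.18 in experiment 4, against 5.76 to 5.86 in the others. C3 in irradiated cells at 24 hours was -1.56, against 0.36 to 0.51. CFB in bystander cells was -1.15 at 2 hours, against -0.25 to -0.19, and -1.43 at 6 hours, against -0.65 to -0.52. CFI in controls at 4 hours was -4.01, against -3.61 to -3.57. The exception was SERPING1 in controls at 6 hours, where experiment 2 was at 0.49 and the others at 1.35 to 1.53.

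Among differences from control, C3 in bystander cells at 24 hours was -0.43 in experiment 4, against 1.21 to 1.47. CFB gave -1.02 in irradiated cells at 1 hour, -0.89 in bystander cells at 2 hours and -1.44 in irradiated cells at 24 hours, where the lowest of the others were -0.24, -0.02 and 0.14. CFD gave -1.14 in bystander cells at 2 hours, against 0.1 to 0.2. In irradiated cells at 4 hours CFD gave 0.17 in experiment 2, against -0.25 to -0.18. Between irradiated and bystander cells, the dimmer C7 probe differed by -1.1 at 6 hours and CFI by 2.38 at 1 hour in experiment 4.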

How the results depend on the processing

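Member values against control, 108 in all, changed most without scaling between arrays, where 13 moved by more than the SD over experiments, and with normexp background correction, where 4 did and 1 reversed. Quantile normalization, the slide as a block and the authors' value table moved none by that much. The SD over experiments is a wide measure, though: with the slide as a block the bystander mean at 24 hours was 0.57 in place of 0.89 for C3 and -1.16 in place of -2.06 for CFI, at 1 hour -1.1 in place of -0.73 for the brighter C7 probe and at 4 hours -2.16 in place of -1.44 for the dimmer one, and with the authors' table irradiated CFI at 2 hours was -0.29 in place of -0.6. The filters leave a member's own value as it is, and leaving out 1 of 4 experiments cannot move a mean by its SD, so neither bears on stability by this measure. The reversal was the dimmer C7 probe in bystander cells at 2 hours, which became 0.06 with normexp background correction. Without scaling between arrays C3 was -0.35 in irradiated and -0.19 in bystander cells at 2 hours and 0.99 in bystander cells at 4 hours, and 0.45 in irradiated cells at 24 hours. In all 635 repeats of irradiated against bystander tests no member probe was called. The number of other complement genes called, 5 in irradiated and 4 in bystander cells, became 8 and 2 without scaling and 3 and 2 with no filter on dim probes. It was 0 in bystander cells with the slide as a block. Leaving out 1 experiment gave 2 to 6 genes in irradiated and 0 to 4 in bystander cells. The fit that ignored the pairing (no replicate block) called 0 and 0. The calls for those genes therefore depend on the pairing and on single experiments, and the cause was not tested. Array-wide counts varied more: at 0.5 hours irradiated cells had 2594 calls, with 0 to 3003 under the alternatives, and bystander cells 1762, with 0 to 2292, both 0 without experiment 2. Irradiated cells at 6 hours had 2692 calls, with 47 to 4431 under the alternatives, and bystander cells at 2 hours had 58, with 0 to 3037. CFI and the dimmer C7 probe are the values most limited by signal over background.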
